A study of Mus musculus with 50 samples.

Results

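Primary p53/MCA sarcomas that received 20 Gy of radiation were compared between mice given a blocking antibody to PD-1 and mice given an isotype control antibody. The comparison held 16 of the 50 samples of the series, 8 anti-PD-1 and 8 isotype, chosen by the labels for tumor type, dose and antibody, and it was read over all 19327 expressed genes. The tumors arose in 129/SvJae mice carrying floxed Trp53 (p53 FL/FL) that were 6 to 10 weeks old when Adeno-Cre, an adenovirus expressing Cre recombinase, was injected into the gastrocnemius muscle to delete the gene locally, followed by 300 µg of the carcinogen 3-methylcholanthrene (MCA). All 16 tumors shared this deletion and this carcinogen. At a volume of about 150 mm3 each mouse received 200 µg of muDX400, a murine anti-PD-1 antibody, or of the isotype control, then a single 20 Gy dose to the tumor-bearing left hind limb, and the whole tumor was taken for RNA sequencing 3 days later. Each library came from a tumor that had arisen independently, so tumors of a group differed in their founding cells and mutations, and whole tumors hold leukocytes, vessels and adjoining muscle together with sarcoma cells. Anti-PD-1 and isotype primary tumors given 0 Gy (8 and 8 samples) served to test whether the antibody difference depended on dose. Transplant tumors of cell line 402230, which is 1 line, given 20 Gy (4 and 4 samples) served to test whether it depended on tumor model. All 48 tumors of the series, transplants given 0 Gy among them, were fitted together. The other groups therefore also entered the gene filter and the estimate of spread behind the main comparison.

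PD-1, encoded by Pdcd1, is a receptor that activated T cells display and that dampens T cell receptor signaling when it meets its ligands PD-L1 (Cd274) and PD-L2 (Pdcd1lg2) on tumor or myeloid cells. Interferon-gamma from T cells and NK cells induces PD-L1, antigen presentation genes and the chemokines Cxcl9 and Cxcl10, which draw in further T cells. Radiation damages DNA, and DNA fragments in the cytosol can be sensed by cGAS, which starts a type I interferon response. Blocking PD-1 is meant to release T cells already in the tumor, and its transcriptional trace would be read in T cell, cytotoxic and interferon-gamma genes.

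Total counts averaged 40775184 ± 5456669 (SD, n = 8) in anti-PD-1 and 38501101 ± 4782125 (SD, n = 8) in isotype libraries, and 1 CPM, the library-scaled level used here, rested on at least 31.8 counts. Trp53, the deleted gene, ran from 21.4 to 51.9 CPM with a median of 31.5 under anti-PD-1 and from 24.1 to 60.6 with a median of 28.9 under isotype. Its log2 fold change was -0.12 (SE 0.176, edgeR adjusted p = 0.834), and counts summed over a whole gene cannot tell deleted from retained exons. Anti-PD-1 replicate 4 stood apart from its group. It had 25.4 CPM of Cdkn2a, a cell cycle inhibitor gene that p53-deficient cells commonly express, against 393.6 to 1163 in the other 7 libraries, and the highest mean of the skeletal muscle list, 12.29 log2 CPM. Anti-PD-1 replicate 5 stood at the other end, with the lowest mean of the 16 libraries for the interferon-gamma, type I interferon and MHC class I lists. Many results that rest on these 2 libraries are given with and without either or both of them. The labels give no sex. Xist was above 100 CPM in 3 anti-PD-1 and 2 isotype libraries, and Ddx3y, a Y-linked gene, was above 10 CPM in 4 and 6.

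No gene passed an adjusted p of 0.05 in edgeR when anti-PD-1 was set against isotype at 20 Gy. The count was 0 of 19327 genes (0%), and the lowest adjusted p was 0.131. At an unadjusted p under 0.05, 1262 genes (6.53%) had a positive log2 fold change, meaning more RNA under anti-PD-1, and 693 genes (3.59%) a negative one. These counts and the lowest adjusted p rest on the spread shared with the other groups. With the 32 primary tumors alone they were 913 and 524 genes with a lowest adjusted p of 0.56, and with the 16 libraries alone 693 and 406 of 16695 genes with a lowest adjusted p of 0.725. DESeq2 on the same libraries passed 44 of the 21822 genes to which it gave an adjusted p (0.202%), 35 of them positive and 9 negative. DESeq2 replaces single outlying counts in groups of this size, which it did for 0 of the 44. limma voom passed 0 genes, with 802 and 748 genes at an unadjusted p under 0.05. The median log2 fold change over all genes was 0.02, the median SE was 0.253, and for 63.7% of genes the 95% interval lay within 2-fold either way. For the remaining genes the interval reached past 2-fold in at least 1 direction. All SEs and intervals, here and below, rest on the same shared spread. They may be narrower than primary tumors alone would give, which was not tested. The groups did not overlap for 3 genes (0.0155%). These were named after their values were seen: Mndal, an interferon-inducible gene of the PYHIN family, Oas1c, of the 2'-5'-oligoadenylate synthetase family, and the antisense gene Gm10425. Among 19327 genes a few without overlap can arise by chance alone, so these 3 are a description only.

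**Figure D1:**
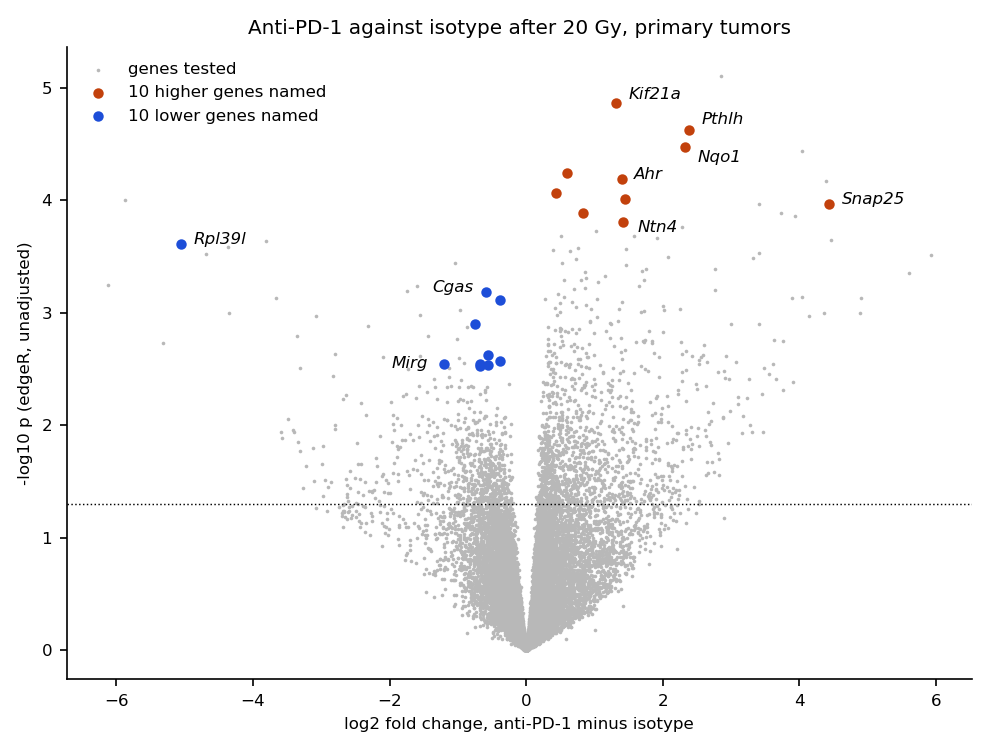
Each point is 1 of the 19327 genes, with the log2 fold change (anti-PD-1 minus isotype, primary tumors after 20 Gy) on the x axis and the negative log10 of the unadjusted edgeR p on the y axis; the dotted line marks an unadjusted p of 0.05. Kif21a, Pthlh and Nqo1 lead the 10 positive genes in orange and Rpl39l the 10 negative genes in blue, all with adjusted p from 0.131 to 0.285.

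The 10 positive genes with the smallest p and an average of at least 1 log2 CPM were Kif21a, Pthlh, Nqo1, Acad11, Ahr, Zfand5, Mfap3l, Snap25, Pitpnc1 and Ntn4. None passed in edgeR, and all 10 passed in DESeq2. For 9 of the 10, at least 4 of the 8 anti-PD-1 libraries lay above all 8 isotype libraries. These genes, like the 10 negative genes below, were picked for a small p in these same libraries, so such counts add no support to them. The share of all tested genes with such counts was not measured, here or for genes named later. Kif21a (chromosome 15, 90933276 to 91049948, - strand, GRCm38), a kinesin motor that acts at microtubule ends, ran from 9.39 to 37.1 CPM with a median of 24.0 under anti-PD-1 and from 4.12 to 16.4 with a median of 8.60 under isotype. Anti-PD-1 libraries lay above the isotype range in 6 of 8 cases, and the log2 fold change was 1.32 (SE 0.269, edgeR adjusted p = 0.131, DESeq2 adjusted p = 0.00462). Pthlh (chromosome 6, 147252101 to 147264183, - strand), which encodes the secreted parathyroid hormone-related protein, stood between 2.39 and 2.86 CPM in 7 isotype tumors and lower in the other. It ran from 0.476 to 2.86 CPM with a median of 2.53 under isotype, and from 0.739 to 40.5 with a median of 9.43 under anti-PD-1. Its log2 fold change was 2.39 (SE 0.504, edgeR adjusted p = 0.142, DESeq2 adjusted p = 0.00284), again with 6 of 8 anti-PD-1 libraries above the isotype range. Without anti-PD-1 replicates 4 and 5 the log2 fold change of Pthlh was 1.73. Ahr (chromosome 12, 35497974 to 35535038, - strand) encodes the aryl hydrocarbon receptor, the ligand-activated factor to which MCA and other polycyclic hydrocarbons bind. It ran from 18.6 to 115.9 CPM with a median of 57.1 under anti-PD-1 and from 13.2 to 37.8 with a median of 25.2 under isotype, a log2 fold change of 1.40 (SE 0.316, adjusted p = 0.16 in edgeR, DESeq2 adjusted p = 0.0182). Cyp1b1 and Tiparp, some of the receptor's targets, were looked at after these values were seen. They had log2 fold changes of 1.06 and -0.05 (edgeR adjusted p = 0.599 and 0.951), and Cyp1b1 was -0.11 without anti-PD-1 replicate 8. The receptor's targets were not examined as a set.

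Ntn4, a basement membrane netrin, had medians of 20.8 CPM under anti-PD-1 and 8.41 under isotype, with a log2 fold change of 1.42 (adjusted p = 0.175 in edgeR). Mfap3l had a log2 fold change of 1.45, which was 0.92 without anti-PD-1 replicate 2, and Pitpnc1, a phosphatidylinositol transfer protein, one of 0.83. Acad11, an acyl-CoA dehydrogenase, and Zfand5, which promotes protein breakdown by the proteasome, showed the smallest sizes, 0.60 and 0.44, with small SEs of 0.135 and 0.101. Without anti-PD-1 replicates 4 and 5, Acad11, Zfand5 and Pitpnc1 were 0.38, 0.33 and 0.52. Ntn4 and Mfap3l were then 1.44 and 1.54. Snap25, a synaptic vesicle fusion protein, had a log2 fold change of 4.44, but 1 library decided its size. Anti-PD-1 replicate 5 held 45.4 CPM, the group median was 1.16 CPM, and without that library the log2 fold change was 2.26.

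Among the 10 negative genes with the smallest p, Rpl39l was present in most isotype tumors and near 0 in every anti-PD-1 tumor. Rpl39l (chromosome 16, 10170226 to 10174911, + strand), a ribosomal protein paralog best known from testis, ran from 0.259 to 60.6 CPM with a median of 6.86 under isotype and from 0.099 to 1.05 with a median of 0.43 under anti-PD-1. In 6 of 8 isotype libraries it lay above all anti-PD-1 libraries. The log2 fold change was -5.05 (SE 1.26, edgeR adjusted p = 0.177, DESeq2 adjusted p = 0.00284), and it kept its sign without each library in turn (-5.31 to -4.38). It is a close copy of Rpl39, which makes its counts uncertain, and Rpl39 itself had a log2 fold change of -0.63 (adjusted p = 0.445 in edgeR). At 0 Gy Rpl39l spanned 0.103 to 48.8 CPM under anti-PD-1 and 0.0261 to 44.3 under isotype, so single tumors of either antibody group held or lacked it.

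Cgas (chromosome 9, 78430526 to 78443237, - strand), the cytosolic DNA sensor, ran from 12.5 to 21.4 CPM with a median of 16.1 under anti-PD-1 and from 17.2 to 38.3 with a median of 22.1 under isotype. In 6 of 8 anti-PD-1 libraries it lay below all isotype libraries. The log2 fold change was -0.58 (SE 0.159, edgeR adjusted p = 0.217, DESeq2 adjusted p = 0.0756). The other negative genes were Zcchc7, Abraxas1, a subunit of a BRCA1-binding complex in DNA repair, Crls1, which makes cardiolipin, Zbtb25, Il11ra1, the receptor of interleukin 11, whose locus overlaps other genes, Alkbh1, a nucleic acid demethylase, Selenom and Mirg. Their log2 fold changes ran from -1.21 for Mirg to -0.38 for Zbtb25 with edgeR adjusted p from 0.223 to 0.285, and none passed in DESeq2. Mirg (chromosome 12, 109729764 to 109749460, + strand) is a non-coding gene of the imprinted Dlk1-Dio3 region. Its neighbors Rian and Meg3, looked at after this value was seen, had log2 fold changes of -1.13 and -1.25 (edgeR adjusted p = 0.307 and 0.427). Rian had medians of 83.5 CPM under anti-PD-1 and 173.3 under isotype.

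**Figure D2:**
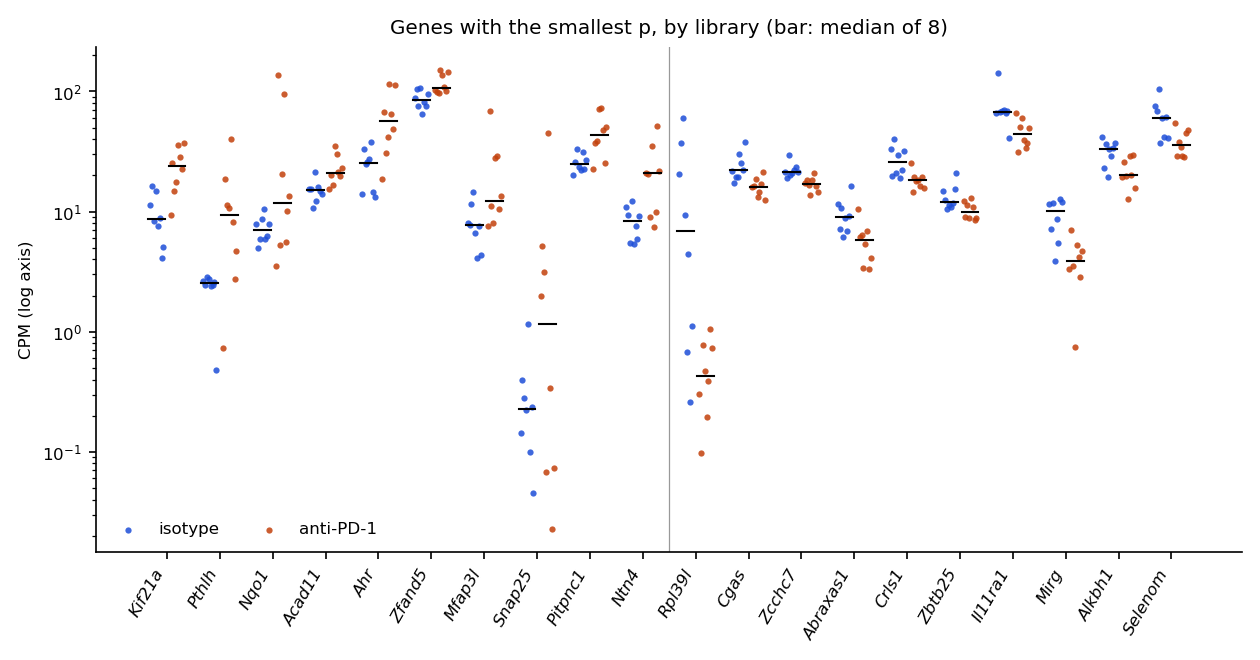
Level in CPM on a log axis of the 10 positive genes (left) and 10 negative genes (right) with the smallest p; each point is 1 library, blue for isotype and orange for anti-PD-1, and the bar is the median of 8. The groups overlap in all 20 genes; Pthlh and Kif21a have 6 of 8 anti-PD-1 libraries above the isotype range, and Rpl39l spreads from 0.259 to 60.6 CPM in isotype tumors only.

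Nqo1 led to a pattern within the anti-PD-1 group. Nqo1 (chromosome 8, 107388225 to 107403206, - strand), a quinone reductase that is a standard target of the oxidative stress factor NRF2, ran from 4.99 to 10.6 CPM with a median of 7.04 under isotype. Under anti-PD-1 it ran from 3.56 to 137.5 CPM with a median of 11.8, and the 2 highest values were 137.5 in replicate 2 and 95.6 in replicate 5. The log2 fold change was 2.33 (SE 0.503, edgeR adjusted p = 0.142, DESeq2 adjusted p = 0.00317), and 1.59 without replicate 2. Gclm, Gclc, Txnrd1, Srxn1 and Slc7a11, other known NRF2 targets for glutathione synthesis, thioredoxin reduction, sulfiredoxin and cystine uptake, were looked at after this was seen. In replicates 2 and 5, the latter a library that stands apart, all 6 genes lay above all isotype libraries, as did 4.24% of all tested genes, and in 5 of the 6 these were the 2 highest anti-PD-1 libraries. These 2 replicates were picked by their Nqo1 values, so Nqo1 is in both counts by choice. Gclm stood at 198.0 and 123.3 CPM in them, against 24.3 to 51.1 in isotype tumors. Slc7a11 stood at 74.4 and 62.8 CPM against 5.90 to 14.7. Replicate 6 was above the isotype range for 4 of the 6 genes. The genes of the factor and its inhibitor, Nfe2l2 and Keap1, had log2 fold changes of 0.09 and -0.09 (edgeR adjusted p = 0.803 and 0.769). At the level of the groups Gclm had a log2 fold change of 1.03 (adjusted p = 0.177 in edgeR, DESeq2 adjusted p = 0.034), and Slc7a11 one of 1.36 (edgeR adjusted p = 0.309). Without anti-PD-1 replicate 2 they were 0.57 and 0.85.

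**Figure D3:**
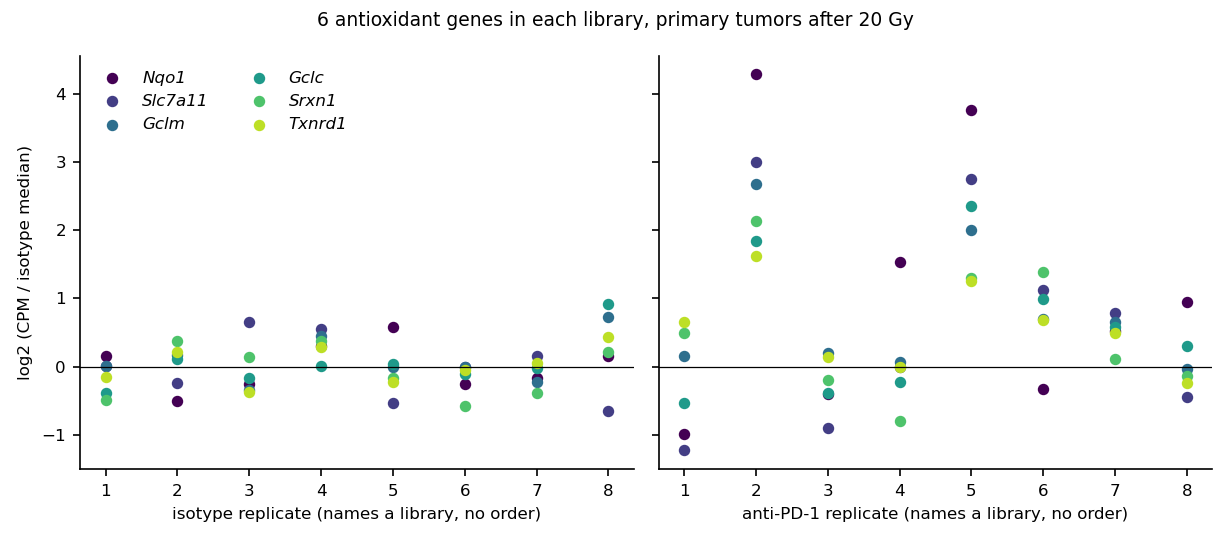
Level of Nqo1, Slc7a11, Gclm, Gclc, Srxn1 and Txnrd1 in each isotype (left) and anti-PD-1 (right) library, as log2 of the CPM over the isotype median; replicate numbers name libraries and carry no order. All 6 genes lie above every isotype library in anti-PD-1 replicates 2 and 5, where Nqo1 reaches 137.5 and 95.6 CPM, and scatter around the isotype median in most others.

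Genes on which PD-1 blockade acts most directly did not pass the test. In bulk RNA fewer cells of a type and less RNA per cell cannot be told apart. Of 31 gene lists with 352 genes, 349 genes were tested, none was called by edgeR or DESeq2, and for none did the groups fail to overlap. At an unadjusted p under 0.05 there were 27 list genes above 0 (7.74%, beside 6.53% of all genes) and 3 below 0 (0.86%, beside 3.59%). The lowest adjusted p of a list gene was 0.255, for Ptgs2. Of all tested genes 53.3% were above 0. Genes of a list can rise and fall together in a tumor, so counts of genes above or below 0 are not counts of independent results. Pdcd1 ran from 0.411 to 24.5 CPM with a median of 1.67 under anti-PD-1 and from 0.703 to 14.6 with a median of 3.05 under isotype. Its log2 fold change of 0.23 had a 95% interval of -0.90 to 1.35 (edgeR adjusted p = 0.906) and was -0.72 without anti-PD-1 replicate 4, the library with 24.5 CPM. Cd274 had medians of 53.7 CPM under anti-PD-1 and 52.2 under isotype. Its lowest anti-PD-1 library held 11.3 CPM, and 2 of 8 lay above the isotype range of 31.8 to 103.3. The log2 fold change was 0.11 (95% interval -0.63 to 0.85, edgeR adjusted p = 0.933). Of the 17 genes of the PD-1 axis and checkpoint receptor list, 8 were above 0 and 9 below, with a median log2 fold change of -0.02 beside 0.02 over all genes. They ran from -0.82 for Cd160 to 0.72 for Tigit. Without anti-PD-1 replicate 4, 3 of 17 were above 0 with a median of -0.39, and without isotype replicate 5 the median was 0.29. Lag3, an inhibitory receptor that binds MHC class II, had medians of 22.0 and 16.2 CPM (log2 fold change 0.35, edgeR adjusted p = 0.70), and Havcr2, which encodes TIM-3, 41.5 and 38.6 CPM (-0.02, edgeR adjusted p = 0.983).

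T cell receptor genes spread widely among the tumors of both groups. The mean of the 18 T cell receptor and coreceptor genes ran from 0.08 to 4.81 log2 CPM with a median of 2.01 under anti-PD-1 and from 0.26 to 3.99 with a median of 2.39 under isotype. Of these genes 15 were above 0 with a median log2 fold change of 0.26, and 0 of 18 had an unadjusted p under 0.05. Without anti-PD-1 replicate 4, whose mean was the 4.81, only 1 of 18 was above 0 and the median was -0.52, and without isotype replicate 5 the median was 0.61. Cd8a, the coreceptor of cytotoxic T cells, ran from 0.606 to 40.3 CPM with a median of 4.77 under anti-PD-1, and from 0.885 to 12.3 with a median of 4.84 under isotype. Its log2 fold change was 0.81 (95% interval -0.39 to 2.02, edgeR adjusted p = 0.635), and -0.11 without replicate 4. Cd4 had medians of 11.7 and 14.3 CPM and a log2 fold change of 0.03 (adjusted p = 0.986 in edgeR).

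Effector genes did not pass either. Of 14 cytotoxic and NK genes, 5 were above 0 and 9 below, with a median of -0.26, and Ncr1, which encodes the NK receptor NKp46, was the 1 gene with an unadjusted p under 0.05 (log2 fold change -0.97, edgeR adjusted p = 0.48). The list median was -0.45 without anti-PD-1 replicate 4 and -0.08 without replicate 5. Ifng, the interferon-gamma gene, ran from 0.0391 to 2.83 CPM with a median of 0.384 under anti-PD-1 and from 0.0681 to 2.71 with a median of 0.615 under isotype. The log2 fold change was 0.37 (95% interval -0.99 to 1.74, edgeR adjusted p = 0.864). Gzmb, a granzyme of killing lymphocytes, had medians of 61.6 and 72.0 CPM and a log2 fold change of -0.39 (95% interval -1.46 to 0.68, edgeR adjusted p = 0.814). Of 8 regulatory T cell genes, 5 were above 0 with a median of 0.06, and 2 with a median of -0.44 without anti-PD-1 replicate 4. Foxp3, the lineage factor, had medians of 2.49 and 1.45 CPM (log2 fold change 0.58, edgeR adjusted p = 0.725, -0.52 without anti-PD-1 replicate 4). Of 15 memory and exhaustion genes, 10 were above 0 with a median of 0.26, which was 0.16 without anti-PD-1 replicate 4. Nr4a2, Nr4a3 and Cd38 had an unadjusted p under 0.05, with log2 fold changes of 1.28, 1.06 and 0.70 (edgeR adjusted p = 0.401, 0.44 and 0.438). Nr4a2 and Nr4a3 are nuclear receptors induced by T cell receptor signaling and by many other stimuli. Their relative Nr4a1 was in no list and was named after it was seen to pass in DESeq2 (adjusted p = 0.041). It ran from 20.0 to 234.7 CPM under anti-PD-1, with 7 of 8 libraries above the isotype range of 12.9 to 28.6. Its log2 fold change was 1.70 (SE 0.445, edgeR adjusted p = 0.194), and 1.09 without anti-PD-1 replicate 2.

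**Figure D4:**
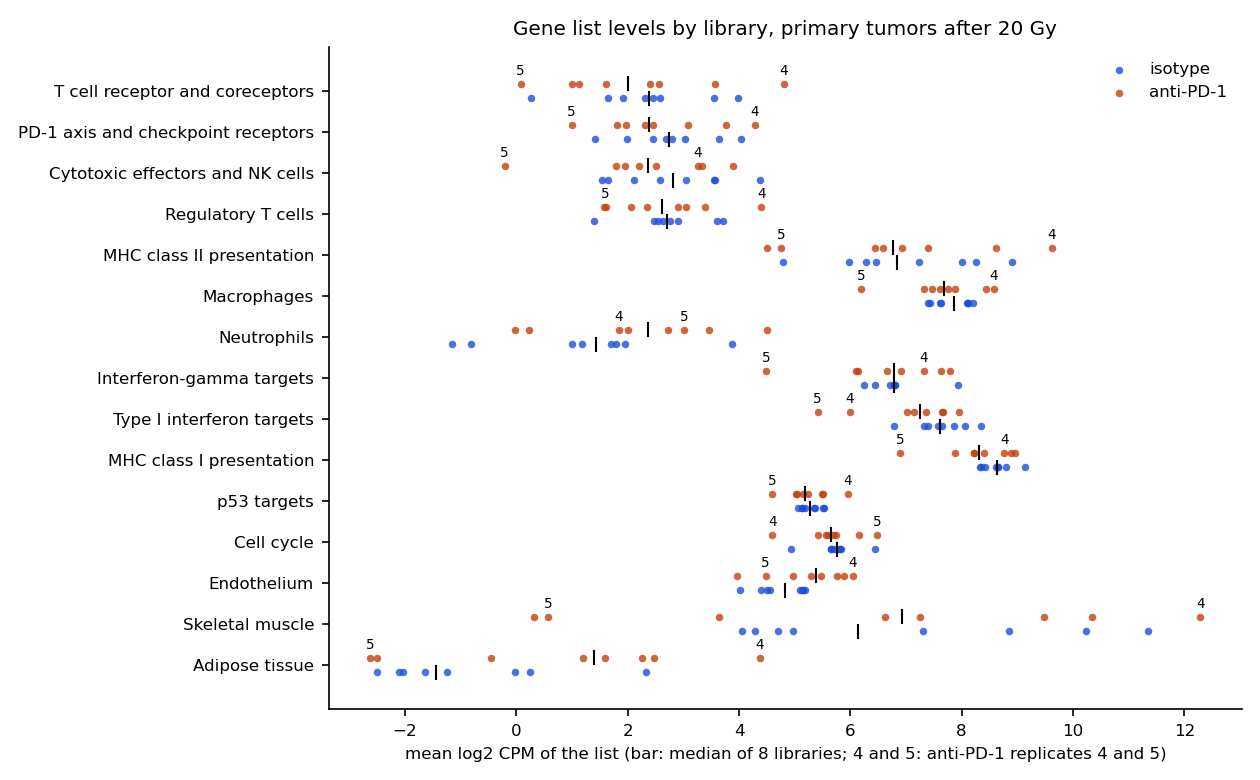
Mean log2 CPM of 15 gene lists in each of the 16 libraries, isotype in blue and anti-PD-1 in orange, with the median of 8 as a bar; 4 and 5 mark anti-PD-1 replicates 4 and 5. The groups overlap in every list shown; anti-PD-1 replicate 4 is highest for T cell receptor genes (4.81) and skeletal muscle (12.29), and replicate 5 is lowest for both interferon lists.

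Among myeloid lists, neutrophil genes were the ones that all leaned one way. All 11 neutrophil genes were above 0, with a median log2 fold change of 0.59, and 3 had an unadjusted p under 0.05. These were Mmp8, a granule collagenase, Ly6g, the surface marker, and Retnlg, with log2 fold changes of 2.29, 2.63 and 2.40 (edgeR adjusted p = 0.313, 0.313 and 0.404). Mmp8 ran from 0.848 to 134.3 CPM with a median of 10.4 under anti-PD-1 and from 1.20 to 18.97 with a median of 3.19 under isotype, and its log2 fold change was 0.93 without anti-PD-1 replicate 6. Ly6g and Retnlg were 1.58 and 1.22 without the same library. The list mean ran from -0.02 to 4.51 log2 CPM under anti-PD-1 and from -1.16 to 3.88 under isotype, so the groups overlapped widely. Without anti-PD-1 replicate 6, 9 of 11 neutrophil genes were above 0 with a median of 0.48. The list median was 2.21 without isotype replicate 3, the isotype library with the highest neutrophil mean. Ptgs2, the inducible cyclooxygenase that makes prostaglandins, was in the macrophage polarization list and ran from 33.5 to 485.9 CPM with a median of 82.2 under anti-PD-1 and from 13.2 to 110.3 with a median of 50.3 under isotype (log2 fold change 1.79, SE 0.527, edgeR adjusted p = 0.255). Retnla, a gene of alternatively activated macrophages, had a log2 fold change of 2.88 (adjusted p = 0.384 in edgeR), and 1.33 without anti-PD-1 replicate 7. In that list 9 of 16 genes were above 0 with a median of 0.42, which was 0.03 without anti-PD-1 replicate 6 and 0.16 without replicate 7. Macrophage genes were split, 6 of 12 above 0 with a median of -0.02. Dendritic cell genes had 4 of 12 above 0 (median -0.13), and B and plasma cell genes 3 of 10 (-0.11). Without anti-PD-1 replicate 4 these medians were -0.61 and -0.79, and without isotype replicate 5 they were 0.11 and 0.24. Igkc, the immunoglobulin kappa constant gene, reached 533.7 CPM in the same anti-PD-1 replicate 4 beside a group median of 12.4, against 45.0 under isotype. Mast cell genes had the lowest median of the leukocyte lists, -0.83, with 1 of 7 above 0. It was -1.25 without anti-PD-1 replicate 3, -0.54 without anti-PD-1 replicates 4 and 5, and -0.35 without isotype replicate 2. Cpa3, the mast cell carboxypeptidase, had medians of 6.17 and 12.4 CPM (log2 fold change -0.80, edgeR adjusted p = 0.72, and -0.22 without isotype replicate 2).

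Over all tested genes 53.3% were above 0, while all 20 type I interferon targets had a log2 fold change below 0. Many of these genes carry an interferon-stimulated response element, bound by transcription factors of this pathway. The core of that element, GAAA followed by any 2 bases and another GAAA, was searched on both strands in the 250 bases before the start of each gene, and 2.98% of all 32851 promoters held it. Of the 15 list genes with a promoter in the table, 7 held it: Ifit1, Ifit3, Isg15, Oas1a, Oas3, Rsad2 and Stat2. The promoters of Isg15, which has the lowest log2 fold change of the list, of Oas1a and of Rsad2, which has the value nearest 0, are given 5′ to 3′ on the strand of the gene (RefSeq, GRCm38.p6, - strand each), with bases in the motif or its reverse complement in capitals.
Isg15 (chr4:156200819-156201068): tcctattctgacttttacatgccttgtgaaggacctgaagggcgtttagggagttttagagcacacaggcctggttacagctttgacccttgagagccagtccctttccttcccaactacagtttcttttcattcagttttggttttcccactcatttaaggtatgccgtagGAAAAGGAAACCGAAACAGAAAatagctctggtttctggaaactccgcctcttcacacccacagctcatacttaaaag
Oas1a (chr5:120907526-120907775): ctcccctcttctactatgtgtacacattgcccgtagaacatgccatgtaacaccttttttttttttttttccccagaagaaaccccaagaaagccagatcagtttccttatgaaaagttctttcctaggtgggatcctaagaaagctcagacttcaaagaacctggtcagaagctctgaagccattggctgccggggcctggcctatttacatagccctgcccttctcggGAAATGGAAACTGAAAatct
Rsad2 (chr12:26456453-26456702): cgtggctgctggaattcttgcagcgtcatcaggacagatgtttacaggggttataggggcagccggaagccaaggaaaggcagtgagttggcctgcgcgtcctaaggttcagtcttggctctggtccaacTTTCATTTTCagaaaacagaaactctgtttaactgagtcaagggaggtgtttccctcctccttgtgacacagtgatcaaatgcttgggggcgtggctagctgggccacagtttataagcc
In Isg15 3 matches overlap in a single run, Oas1a holds 2 and Rsad2 1. A match of letters is a description of these windows and does not show binding.

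The median log2 fold change of the type I interferon list was -0.42 beside 0.02 over all genes, 2 of 20 genes had an unadjusted p under 0.05, and none passed. Isg15, a ubiquitin-like modifier, ran from 61.4 to 832.6 CPM with a median of 235.6 under anti-PD-1 and from 173.0 to 841.8 with a median of 464.0 under isotype (log2 fold change -0.78, SE 0.48, edgeR adjusted p = 0.565). Oas2 and Oas1a, which make the activator of the antiviral nuclease RNase L, were the 2 genes, with log2 fold changes of -0.76 and -0.68 (edgeR adjusted p = 0.42 and 0.493). For Oas2, 7 of 8 anti-PD-1 libraries lay below the isotype range of 84.6 to 172.5 CPM. Rsad2, which encodes the antiviral enzyme viperin, had medians of 147.1 and 144.8 CPM (log2 fold change -0.14, edgeR adjusted p = 0.932). The list mean ran from 5.41 to 7.95 log2 CPM under anti-PD-1 and from 6.79 to 8.35 under isotype, and the 2 lowest libraries of the 16 were anti-PD-1 replicates 5 and 4. Without either of them alone 1 of 20 genes was above 0. Without both, 18 of 20 were below 0 and the median was -0.17. Oas1c, one of the 3 genes without overlap, ran from 1.62 to 6.63 CPM under anti-PD-1 and from 6.98 to 14.9 under isotype (log2 fold change -0.84, edgeR adjusted p = 0.363). Mndal ran from 30.3 to 76.26 CPM and from 76.32 to 100.1 CPM (log2 fold change -0.52, edgeR adjusted p = 0.41). Members of the Oas1 and PYHIN families share sequence, so their counts are uncertain. Oas1c and Mndal were in no list and were picked for their lack of overlap, so they add no support to the type I interferon list.

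Of 17 interferon-gamma targets 6 were above 0 and 11 below, with a median of -0.10, up to 1.57 for Ido1. Single libraries moved this list both ways: 2 of 17 were above 0 with a median of -0.26 without anti-PD-1 replicate 7, and 13 with a median of 0.06 without replicate 5. The median was 0.15 without isotype replicate 5. Ido1, the tryptophan-degrading enzyme, had medians of 1.14 and 0.485 CPM (edgeR adjusted p = 0.41). Cxcl9, the T cell chemokine, ran from 24.4 to 1353 CPM with a median of 418.8 under anti-PD-1 and from 212.0 to 1592 with a median of 516.6 under isotype (log2 fold change -0.16, 95% interval -1.25 to 0.92, edgeR adjusted p = 0.934). All 12 MHC class I presentation genes were below 0, with a median of -0.20 and 0 with an unadjusted p under 0.05. Without anti-PD-1 replicate 5, 3 of 12 were above 0 with a median of -0.09. B2m, the light chain of class I molecules, had medians of 2436 and 2871 CPM (log2 fold change -0.34, edgeR adjusted p = 0.652), and Psmb9, an immunoproteasome subunit, had the lowest log2 fold change, -0.56. Of 7 MHC class II genes 6 were above 0 with a median of 0.25, and without anti-PD-1 replicate 4 none was, with a median of -0.54, while without isotype replicate 5 the median was 0.66. Chemokine genes had 7 of 17 above 0 and a median of -0.10, and 10 of 17 with a median of 0.05 without anti-PD-1 replicate 5.

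Of 14 p53 targets, read as genes of the radiation response, 8 were above 0, with a median log2 fold change of 0.02, and 5 with a median of -0.12 without anti-PD-1 replicate 4. Cdkn1a, the cell cycle inhibitor p21, ran from 78.8 to 468.6 CPM with a median of 228.4 under anti-PD-1 and from 175.9 to 276.4 with a median of 209.1 under isotype (log2 fold change 0.18, 95% interval -0.27 to 0.63, edgeR adjusted p = 0.795). Cell cycle genes had 7 of 14 above 0 and a median of -0.01, from -0.21 for E2f1 to 0.16 for Mcm2. Without anti-PD-1 replicate 5, 0 of 14 were above 0 and the median was -0.19. Cell death genes had 6 of 12 above 0 (median -0.02). Gsdme, a gasdermin that forms membrane pores after caspase 3 cleavage, had an unadjusted p under 0.05 and a log2 fold change of 0.61 (adjusted p = 0.366 in edgeR). Immediate early and heat shock genes had 6 of 10 above 0 with a median of 0.02.

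Vessel, matrix and hypoxia genes leaned positive without passing. Of 9 endothelial genes 8 were above 0, with a median of 0.40, and Tek, Flt1, Vwf and Pecam1 had an unadjusted p under 0.05. The median was 0.27 without anti-PD-1 replicate 7 and 0.76 without isotype replicate 7. Flt1, a VEGF receptor, ran from 22.9 to 72.6 CPM with a median of 53.9 under anti-PD-1 and from 17.1 to 46.8 with a median of 27.2 under isotype, with 6 of 8 anti-PD-1 libraries above the isotype range. Its log2 fold change was 0.80 (SE 0.255, edgeR adjusted p = 0.285). Vwf, von Willebrand factor, had one of 1.56 (edgeR adjusted p = 0.412), which was 0.78 without anti-PD-1 replicate 4, and Kdr, the main VEGF receptor, 0.03. Of 12 extracellular matrix genes 11 were above 0 with a median of 0.25, up to 0.77 for Postn, and 7 of 12 with a median of 0.01 without anti-PD-1 replicate 8. The median was 0.47 without isotype replicate 2. Of 12 TGF-beta pathway genes 8 were above 0 with a median of 0.10, which was 0.03 without anti-PD-1 replicate 2 and 0.19 without replicate 8. Tgfb2, Tgfbr1 and Tgfb1, 2 ligands and a receptor, had an unadjusted p under 0.05 and log2 fold changes of 0.73, 0.48 and 0.24 (edgeR adjusted p = 0.48, 0.384 and 0.492). Tgfb2 was 0.19 without anti-PD-1 replicate 8. Of 10 hypoxia genes 8 were above 0 with a median of 0.44, which was 0.29 without anti-PD-1 replicate 5 and 0.73 without isotype replicate 3. Car9, a carbonic anhydrase, had a log2 fold change of 1.94 (adjusted p = 0.284 in edgeR), which was 0.25 without anti-PD-1 replicate 5, where it reached 70.4 CPM.

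Markers of tissues around the tumor differed widely between libraries. The skeletal muscle list ran from 0.32 to 12.29 log2 CPM under anti-PD-1 and from 4.06 to 11.34 under isotype. All 10 muscle genes were above 0 with a median log2 fold change of 0.69, and without anti-PD-1 replicate 4 none was, with a median of -0.77, while without isotype replicate 4 the median was 1.84. All 7 adipose genes were above 0 with a median of 2.76, 5 with an unadjusted p under 0.05, and the median was 1.59 without anti-PD-1 replicate 4 and 4.34 without isotype replicate 4. Adipoq, which encodes adiponectin, ran from 0 to 15.4 CPM with a median of 0.908 under anti-PD-1 and from 0 to 2.77 with a median of 0.188 under isotype (log2 fold change 2.64, edgeR adjusted p = 0.445). Peripheral nerve genes had 5 of 6 above 0 (median 0.41), red blood cell genes 3 of 5 (0.43), bone and cartilage genes 3 of 7 (-0.29) and the 3 tested epidermis genes 2 of 3 (1.18). Without anti-PD-1 replicate 4 the nerve, red blood cell and epidermis medians were -0.38, 0.04 and 0.42. All 5 sex-linked genes were below 0 with a median of -0.87, which was -1.34 without anti-PD-1 replicate 5 and -2.06 without replicates 4 and 5. The part of these tissues in the immune and interferon values above was not tested beyond a fit with the muscle list as a covariate, in which 0 genes passed.

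Whether the antibody difference after 20 Gy differed from that at 0 Gy was tested as an interaction within primary tumors. No gene passed in edgeR (0 of 19327, 0%, lowest adjusted p = 0.27), with 809 genes above and 359 below 0 at an unadjusted p under 0.05, and DESeq2 passed 11 (0.0488%). At 0 Gy alone anti-PD-1 against isotype passed 0 genes (0%), with 356 (1.84%) and 351 (1.82%) at an unadjusted p under 0.05. The T cell receptor list had 18 of 18 genes above 0 at 0 Gy with a median log2 fold change of 1.01, and 15 of 18 with a median of 0.26 at 20 Gy. The interferon-gamma list had 17 of 17 above 0 with a median of 0.64 at 0 Gy and 6 of 17 with -0.10 at 20 Gy. At an unadjusted p under 0.05 were 7 of its genes at 0 Gy, all above 0, and 1 at 20 Gy. Single libraries turned the sign of both 20 Gy medians. That of T cell receptor genes was -0.52 without anti-PD-1 replicate 4, and that of interferon-gamma targets 0.06 without replicate 5. No library was left out in turn at 0 Gy or in the transplants. Other lists leaned the same way at both doses. Type I interferon targets had 17 of 20 below 0 at 0 Gy (median -0.13) and 20 of 20 at 20 Gy (-0.42). Cytotoxic genes had 6 of 14 above 0 at 0 Gy (-0.20) and 5 of 14 at 20 Gy (-0.26). Neutrophil genes had 8 of 11 above 0 at 0 Gy (0.72) and 11 of 11 at 20 Gy (0.59). Pdcd1 had a log2 fold change of 1.30 at 0 Gy and 0.23 at 20 Gy, an interaction of -1.07 (edgeR adjusted p = 0.872). Kif21a, Pthlh and Nqo1 had 0.33, -0.21 and 0.12 at 0 Gy, and their interactions of 0.99, 2.60 and 2.21 did not pass (edgeR adjusted p = 0.727, 0.461 and 0.594). These genes were chosen for their difference at 20 Gy, which is part of the interaction. A larger value at 20 Gy than at 0 Gy was therefore likely from the choice alone and does not show a dependence on dose.

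The same difference was set against transplant tumors after 20 Gy, 4 against 4. The interaction passed 0 genes in edgeR (0%, lowest adjusted p = 0.512), with 829 genes above and 1031 below 0 at an unadjusted p under 0.05. DESeq2 passed 2 (0.00543%), Skint3, named after its values were seen, and Dmp1, a gene of the bone and cartilage list. In transplants alone anti-PD-1 against isotype passed 0 genes (0%), with 408 (2.11%) above and 0.543% of genes below 0 at an unadjusted p under 0.05. Checkpoint receptor genes had 16 of 17 above 0 in transplants with a median log2 fold change of 0.63, and 8 of 17 with -0.02 in primary tumors. Cytotoxic genes had 13 of 14 above 0 with a median of 0.65 in transplants and 5 of 14 with -0.26 in primary tumors. Gzmb ran from 145.9 to 393.2 CPM under anti-PD-1 and from 128.2 to 197.0 under isotype in transplants (log2 fold change 0.62), against -0.39 in primary tumors, an interaction of -1.01 (edgeR adjusted p = 0.683). Type I interferon targets were below 0 in all 20 genes in primary tumors, and 5 of 20 were above 0 in transplants, with a median of -0.15.

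**Figure D5:**
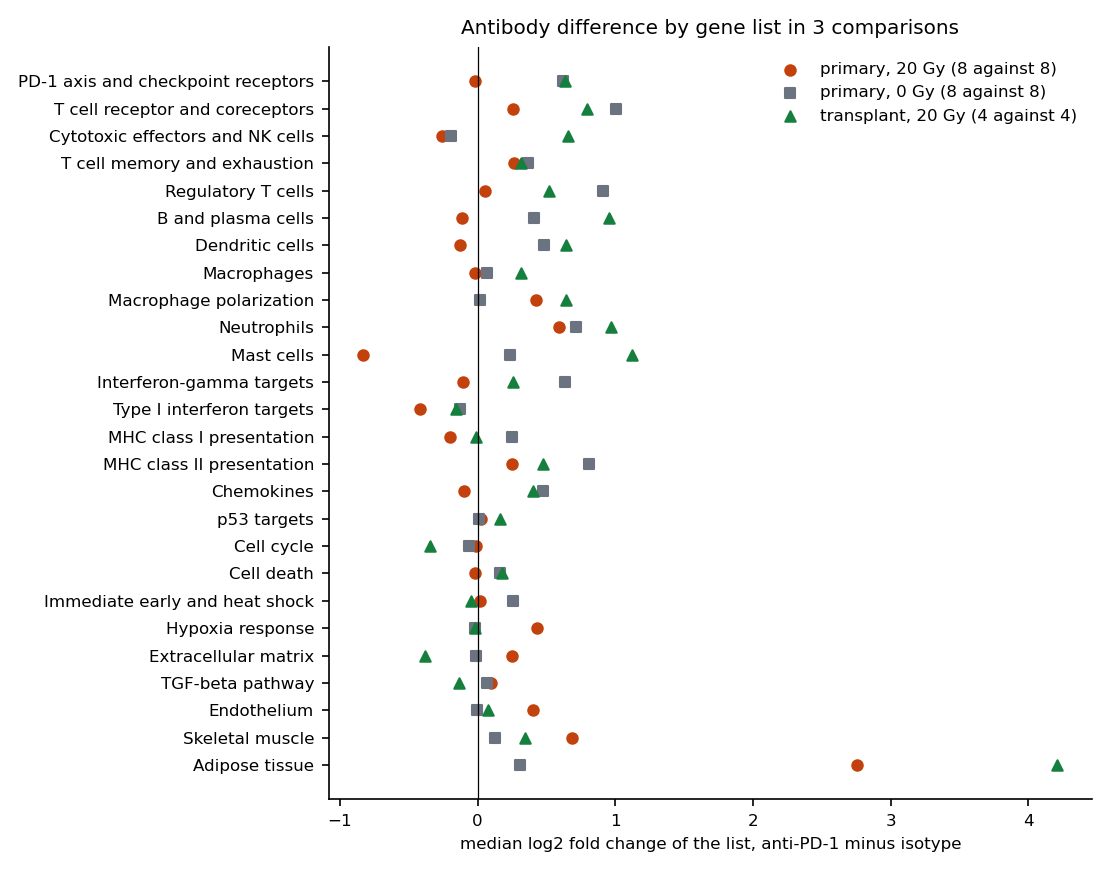
Median log2 fold change of 26 gene lists, anti-PD-1 minus isotype, in primary tumors after 20 Gy (orange circles), primary tumors at 0 Gy (gray squares) and transplants after 20 Gy (green triangles). For checkpoint receptors the orange circle lies at -0.02 and the other 2 markers above 0.6; no gene of any list passed in edgeR in any of the 3 comparisons.

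Of the variance among the 16 transcriptomes, in log2 CPM over all tested genes, 6.19% lay between antibodies (exact permutation p = 0.461, 12870 relabellings). Many arbitrary relabellings of the libraries gave a share at least as large. Along the leading principal component (32.6% of the variance), 0.0743% of the variance of the scores lay between antibodies. Whether anti-PD-1 tumors differed more among themselves was measured as the distance from each library to the mean of the other libraries of its group. It ran from 102.5 to 196.8 with a median of 119.1 under anti-PD-1 and from 89.7 to 140.8 with a median of 111.9 under isotype. The means of 133.8 ± 34.1 and 111.2 ± 16.6 (SD, n = 8 each) differed by 22.6 (exact two-sided permutation p = 0.118), which did not pass 0.05. The largest distances were those of anti-PD-1 replicates 4, 5 and 1, and without replicates 4 and 5 the difference was 10.1 (exact permutation p = 0.324). At 0 Gy the difference was -8.79 (exact permutation p = 0.26).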

How the data were processed

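Whole-tumor RNA was sequenced from 48 tumors in 8 groups. The 2 other libraries, of the parental tumor of line 402230 and of the cell line itself, were not used here. Per the labels, the authors made stranded, poly(A)-selected paired-end libraries, trimmed reads with Trimmomatic (version 0.36), aligned them with STAR to mm10 and deposited raw counts per gene (GENCODE M17) for 37469 genes. Whether counting used strand is not given in the sources used here, so overlapping and antisense genes are uncertain. Symbols and coordinates came from a GENCODE annotation of GRCm38, which matched 19313 of the genes tested.

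Counts were fitted with edgeR (version 4.0.16, R 4.3.3, TMM factors, robust quasi-likelihood test) over all 48 tumors with 8 group means, so that all groups share the estimate of spread, after filterByExpr kept 19327 genes. Each SE was the absolute log2 fold change divided by the square root of the F value of this test, and the 95% intervals were built from it. A gene passed at a Benjamini-Hochberg adjusted p under 0.05, over all tested genes. Levels are CPM, and log2 CPM used a prior count of 2. limma (3.58.1, voom) and DESeq2 (1.42.0) were alternatives, with other size factors, filters, covariates (muscle list, Y-linked genes), samples and each of the 16 libraries left out. The spread and share of variance were tested by exact permutation of the antibody labels. The code was tested on simulated data. Named genes are the list genes, the 10 positive and 10 negative genes with the smallest p and an average of at least 1 log2 CPM, Trp53, and others named as seen afterwards. The comparison and the lists were chosen with earlier results of these data known. Leaving out both anti-PD-1 replicates 4 and 5 was an alternative chosen after seeing the data. Replicate numbers follow sample order and name a library only. No pair of libraries of a group agreed within sampling noise (lowest chi-square per degree of freedom 81.2 over 56 pairs). Total counts ran from 31810461 to 51436481, and the 10 most abundant genes took 5.0% to 15.2% of them. One member of the interferon-gamma list is not reported here by name.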

Additional observations from a re-analysis of the deposited data

Results flagged for a closer look

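In sets of 8 libraries of 1 group, the highest or lowest library was examined for a gap to its nearest neighbor that was large beside the range of the set. This was met in 7 sets, 5.3% of those examined. Chance alone would give about 1 in 20 if the sets were independent. They share libraries, and some genes were picked by their values, so the share that chance gives here was not tested. The 7 sets are a description only. Among anti-PD-1 tumors, replicate 4 had the lowest Mirg, -0.34 log2 CPM with the nearest library at 1.54, and replicate 5 had the lowest Gzmb, 2.31 log2 CPM with the nearest at 4.93. Among isotype tumors, replicate 5 had the highest mean of the interferon-gamma targets, 7.94 log2 CPM with the nearest at 6.81. Isotype replicate 3 had the highest mean of the hypoxia list, 6.89 log2 CPM with the nearest at 5.84, and the highest Zcchc7, 4.89 log2 CPM with the nearest at 4.56. Isotype replicate 8 had the lowest Pthlh, -0.93 log2 CPM with the nearest at 1.29. Isotype replicate 2 had the highest Il11ra1, 7.16 log2 CPM with the nearest at 6.14.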

How the results depend on the processing

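The count of genes passing between antibodies after 20 Gy was 0 in edgeR and 44 in DESeq2. Over the fits that left out 1 library it ran from 0 to 20, with 20 without anti-PD-1 replicate 1, 4 without replicate 3 and 1 each without replicates 2 and 7. DESeq2 passed 11 genes for the dependence on dose and 2 for that on tumor model, where edgeR passed 0. The cause of these differences was not tested. Of 850 values of 34 named genes under the alternatives, 803 kept direction and side of the threshold, 23 passed the threshold in an alternative only, and 24 changed sign. The sign changes were in 10 genes, none of which passed. Pdcd1 was -0.10 with the muscle covariate, -0.55 in limma voom, -0.52 without anti-PD-1 replicates 4 and 5, and -0.72 to 0.73 with 1 library left out. Cd8a (voom -0.059, 1 library left out -0.11 to 1.11), Ifng (-0.42, -0.093 to 1.07), Cd274 (-0.12, -0.043 to 0.29) and Foxp3 (-0.053, -0.52 to 1.01, and -0.35 without both libraries) did the same. Rsad2 was 0.22 without both libraries and -0.36 to 0.042 with 1 left out. With 1 library left out, S100a8 ran from -0.37 to 2.21, Cxcl9 from -0.53 to 0.25, Trp53 from -0.25 to 0.053 and Cdkn1a from -0.013 to 0.32. The distance difference ran from 13.6 to 29.3 and the share of variance from 5.61% to 7.94% with 1 library left out, none with p under 0.05. No paired analysis was possible because the labels give no replicate numbers that pair anti-PD-1 with isotype tumors. At this depth 1 CPM rested on at least 31.8 counts, so levels far below it are imprecise. Nothing here shows that the antibody had no effect, since the interval of many genes reached past 2-fold.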

Other observations

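Of the 44 genes that passed in DESeq2 only, 11 were among the 20 genes with the smallest edgeR p described above, and 22 had an average under 1 log2 CPM or were not tested by edgeR. A few others were picked by hand after their values were seen and stand for no group. Il11, a cytokine of the interleukin 6 family, had an edgeR log2 fold change of 2.28, Bmp6, a bone morphogenetic protein, one of 1.58, Chrdl1, an inhibitor of such proteins, one of 2.77, and Col18a1, a basement membrane collagen, one of 1.76. Il11ra1, the receptor for Il11, was among the 10 negative genes with a log2 fold change of -0.68. Without anti-PD-1 replicate 5 Il11 was 1.29, and without replicate 8 Col18a1 was 1.01. None of these passed in edgeR.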
